A study of Mus musculus with 15 samples.

Results

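The genes described here are 10 members of the BCL2 family, chosen by name out of 49554 RefSeq genes on the 19 autosomes and chromosome X. The survival genes are Bcl2, Bcl2l1 and Mcl1, the effectors are Bax and Bak1, and the BH3-only genes are Bcl2l11, Bbc3, Pmaip1, Bid and Bmf. The effectors and BH3-only genes are called pro-death genes below. Each gene was read in a window made of its annotated span on GRCm38 plus 20 kb on each side, and all 10 could be placed. The libraries came from EL4, a mouse T lymphocyte lymphoma line of the C57BL/6N strain (ATCC TIB-39), grown in culture with no treatment named in the labels of these samples. ChIP-seq of 5 histone marks, H3K4me3, H3K9ac, H3K27ac, H3K36me2 and H3K27me3, and ATAC-seq, which cuts open DNA with a transposase, were run in 2 replicates each. Every result is therefore a description of 1 cell line, and the methods of the study call the replicates technical, so the spread between them says nothing about separate cultures.

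The BCL2 family decides whether the outer membrane of the mitochondrion stays closed. The survival proteins hold back Bax and Bak1, which otherwise assemble into pores and release cytochrome c, and the BH3-only proteins tip this balance by binding the survival proteins or by activating the effectors directly. In T lymphocytes, Bcl2 and Mcl1 keep resting and developing cells alive, and Bim, the product of Bcl2l11, is a main executioner of unwanted clones. H3K4me3 and acetylation at H3K9 and H3K27 are marks of active starts, with H3K27ac also found at enhancers. H3K36me2 spreads broadly over and between genes, and H3K27me3 is the Polycomb mark of silenced genes.

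The lists hold called intervals with no score or read count, so the depth behind an interval is unknown and only its position and width could be used. Over all chromosomes each list held 17519 to 46015 intervals. The agreement of the replicates, as base pairs covered in both over those covered in either (Jaccard index), ranged from 0.922 (H3K4me3) through 0.869 (H3K9ac), 0.865 (H3K27ac) and 0.660 (ATAC-seq) to 0.568 (H3K36me2) and 0.498 (H3K27me3). As a check of the cell type, H3K4me3 touched a gene end in both replicates at 9 of 10 T lineage genes, all but Cd247, against 1 of 6 B lineage genes (Cd79a), 2 of 6 myeloid genes (Lyz2 and Spi1), 1 of 3 erythroid genes (Klf1) and 0 of 3 epithelial genes. The same criterion was met by 28.2% of all genes and 47.3% of protein-coding genes. No protein or RNA level was read here, and an interval at a gene does not measure its expression.

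The start regions that carry the clearest contrasts are printed from the RefSeq promoter table (GRCm38.p6), each from 250 bases before to 50 bases after a listed start, 5′ to 3′ on the strand of the gene, with every CpG in capitals. Bcl2 (chr1:106714241-106714540, minus strand), Bbc3 (chr7:16309333-16309632, plus strand) and Mcl1 (chr3:95658471-95658770, plus strand) are shown for their wide H3K4me3 intervals. Bax (chr7:45466849-45467148, minus strand) is shown as the one with H3K4me3 but no ATAC-seq interval at its start. The 2 starts of Bcl2l1, 2075 bases (chr2:152831679-152831978, minus strand) and 5314 bases (chr2:152828440-152828739, minus strand) inside the 5′ end of its span, are shown because the first had every active mark and the second had none of them. They are labelled marked and unmarked for the active marks only, since the second lay inside H3K36me2 in both replicates.
Bcl2: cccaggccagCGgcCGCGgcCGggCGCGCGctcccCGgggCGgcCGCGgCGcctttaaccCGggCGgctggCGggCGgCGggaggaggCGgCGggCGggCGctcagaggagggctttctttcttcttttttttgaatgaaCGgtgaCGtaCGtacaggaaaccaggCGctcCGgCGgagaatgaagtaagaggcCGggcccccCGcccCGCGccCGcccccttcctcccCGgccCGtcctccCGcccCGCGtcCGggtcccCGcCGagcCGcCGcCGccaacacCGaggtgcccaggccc
Mcl1: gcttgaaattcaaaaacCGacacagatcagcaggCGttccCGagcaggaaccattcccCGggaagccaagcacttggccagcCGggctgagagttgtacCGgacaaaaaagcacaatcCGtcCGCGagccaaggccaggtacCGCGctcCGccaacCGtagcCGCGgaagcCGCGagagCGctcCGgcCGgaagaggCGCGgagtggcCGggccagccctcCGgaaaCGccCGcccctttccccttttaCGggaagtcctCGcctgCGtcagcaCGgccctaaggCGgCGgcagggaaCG
Bbc3: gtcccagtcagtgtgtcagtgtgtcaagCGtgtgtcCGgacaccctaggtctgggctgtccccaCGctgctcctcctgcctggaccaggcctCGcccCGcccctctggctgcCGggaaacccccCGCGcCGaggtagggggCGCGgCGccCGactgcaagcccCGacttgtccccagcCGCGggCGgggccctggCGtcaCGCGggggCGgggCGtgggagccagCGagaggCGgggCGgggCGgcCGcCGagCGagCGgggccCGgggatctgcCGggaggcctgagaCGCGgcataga
Bax: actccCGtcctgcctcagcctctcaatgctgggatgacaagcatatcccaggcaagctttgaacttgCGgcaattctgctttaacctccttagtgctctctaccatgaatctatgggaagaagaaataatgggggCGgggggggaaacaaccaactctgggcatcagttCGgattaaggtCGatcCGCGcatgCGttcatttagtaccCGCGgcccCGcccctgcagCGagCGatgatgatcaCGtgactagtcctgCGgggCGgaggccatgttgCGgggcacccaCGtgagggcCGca
Bcl2l1, marked start: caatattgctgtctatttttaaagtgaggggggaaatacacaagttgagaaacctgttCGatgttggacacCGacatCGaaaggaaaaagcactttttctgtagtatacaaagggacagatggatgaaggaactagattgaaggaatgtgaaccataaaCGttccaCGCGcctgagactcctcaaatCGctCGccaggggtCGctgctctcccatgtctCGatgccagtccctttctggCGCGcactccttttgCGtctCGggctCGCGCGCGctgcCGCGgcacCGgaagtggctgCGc
Bcl2l1, unmarked start: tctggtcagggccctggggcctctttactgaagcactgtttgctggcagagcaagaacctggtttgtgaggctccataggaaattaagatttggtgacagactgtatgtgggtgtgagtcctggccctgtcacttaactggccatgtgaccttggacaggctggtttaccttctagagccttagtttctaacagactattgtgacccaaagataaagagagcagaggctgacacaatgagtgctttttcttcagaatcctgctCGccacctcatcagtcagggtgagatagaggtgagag
The Bcl2 region held 44 CpG and was 76% G or C, Bbc3 held 34, Mcl1 held 33 and Bax held 19. The marked Bcl2l1 start held 22 CpG, at 1.07 times the number its base composition gives, and the unmarked one held 1 CpG, at 0.0558 times.

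Intervals of H3K4me3, H3K9ac, H3K27ac, ATAC-seq and H3K36me2 were present in the window of all 10 genes in both replicates, and H3K27me3 was present in none of the 10 in either replicate. Over merged replicates, the share of all genes with an interval in such a window was 45.4% for H3K4me3, 44.0% for H3K9ac, 46.1% for H3K27ac, 45.3% in ATAC-seq, 50.9% for H3K36me2 and 38.2% for H3K27me3. Among protein-coding genes the shares were 63.4%, 62.1%, 63.6%, 63.1%, 64.6% and 40.3% in the same order. Survival and pro-death genes thus did not differ in which marks their windows held. H3K27me3 was also less frequent around marked genes in general, at 28.0% of the protein-coding genes with H3K4me3 at a gene end in both replicates.

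**Figure D1:**
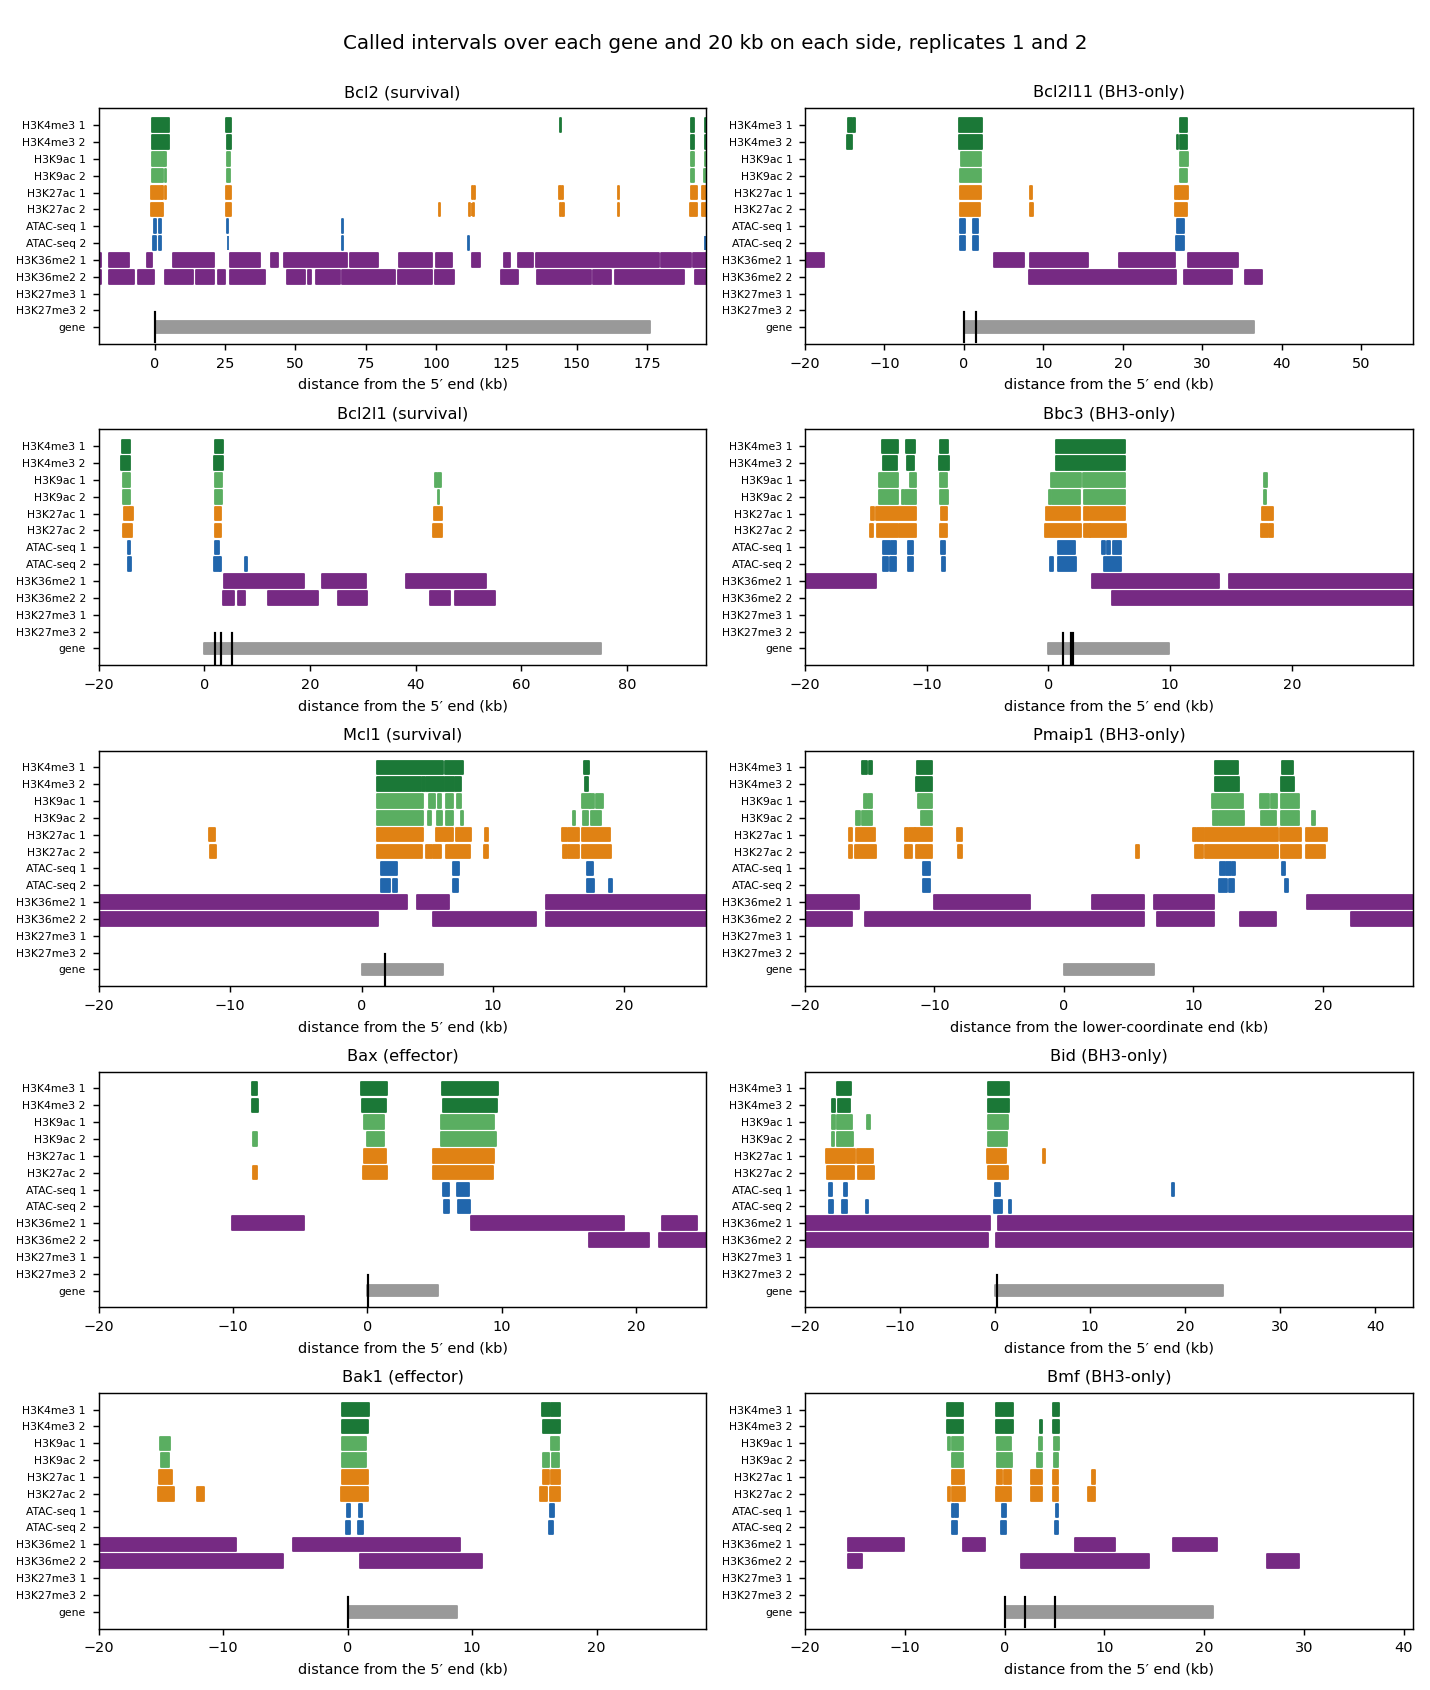
Called intervals of the 12 lists (rows, replicate 1 above replicate 2 for each mark) over each of the 10 genes and 20 kb on each side, against the distance from the 5′ end in kb (for Pmaip1, from the lower-coordinate end). Grey bars are gene spans and black ticks are listed start sites. H3K4me3, acetylation and ATAC-seq stack at the starts of most genes, the span of Pmaip1 lies between marked flanks, the start of Bax has no ATAC-seq interval, and the H3K27me3 rows are empty.

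At the starts themselves, which the promoter table gives for 9 of the genes as 16 sites, H3K4me3, H3K9ac and H3K27ac each covered 14 of 16 in both replicates. The same 3 marks covered 31.9%, 30.2% and 30.5% of all 32619 listed starts. ATAC-seq intervals of both replicates held 11 of the 16, against 25.0% of all starts, and 2 more starts were inside in 1 replicate only. H3K36me2 held 1 of the 16 in both replicates, against 8.08%, and a further 5 in 1 replicate, and H3K27me3 held 0, against 6.03%. Each of the 9 genes had at least 1 start inside H3K4me3. The sites outside were alternative starts, the one of Bcl2l1 at 5314 bases and the one of Bmf at 2087 bases inside the span. At the coarser level of gene ends (from 3 kb beyond an end of the span to 2 kb within it), 9 of 10 genes had H3K4me3 in both replicates (28.2% of all genes), 8 had H3K9ac (27.4%), 9 had H3K27ac (28.4%), 9 had ATAC-seq (24.5%), 8 had H3K36me2 (27.8%) and 0 had H3K27me3 (14.3%). Among protein-coding genes these shares were 47.3, 46.5, 47.1, 42.5, 40.3 and 13.6%. Pmaip1 had no H3K4me3, H3K9ac or ATAC-seq interval there in either replicate. Its H3K27ac there came from different intervals in the replicates. They lay 9.95 to 10.2 kb from the lower-coordinate end in replicate 1 and 5.59 to 5.78 kb in replicate 2. Counting only base pairs covered in both replicates, 8 genes had H3K27ac and 6 had H3K36me2 at a gene end. Bcl2l1 lacked H3K9ac in replicate 2 and H3K27ac in replicate 1, where its intervals begin close to the 2 kb limit inside the span. Bax counted for ATAC-seq only through sites beyond its 3′ end, within 1 kb of the start of Ftl1.

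Bcl2, the founding survival gene (chr1:106538176-106714290, minus strand), had the widest H3K4me3 interval at a start among the 9 genes with a listed start. It measured 6.35 kb in replicate 1 and 6.32 kb in replicate 2, reaching from -1.15 to 5.20 kb and from -1.11 to 5.21 kb, where negative values lie upstream of the 5′ end. Only 40 of the 7641 H3K4me3 intervals that hold a listed start were wider in replicate 1, and 36 of 7628 in replicate 2. Acetylation covered a shorter stretch, with H3K9ac intervals of 4.31 and 4.19 kb and H3K27ac intervals of 3.91 and 3.87 kb at the start. A second site inside the gene, near 26 kb, had H3K4me3 of 1.57 and 1.46 kb, H3K27ac of 1.82 and 1.81 kb, and H3K9ac and ATAC-seq in both replicates. Beyond the 3′ end, H3K4me3, H3K9ac and H3K27ac were found again near the start of the long noncoding RNA Gm41928.

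Mcl1, a short-lived survival protein whose gene lies at chr3:95656944-95663179 on the plus strand, was covered by H3K4me3 over nearly its whole length from its start to past its 3′ end. The interval at the start ran for 5.08 kb in replicate 1. A second interval of replicate 1 followed, 6.33 to 7.71 kb from the 5′ end. In replicate 2 the caller split these stretches further, leaving 3.41 kb at the start and smaller pieces, the last ending 7.59 kb from the 5′ end. H3K4me3 took 14.8 and 13.9% of the window, H3K27ac 21.3 and 22.8%, and ATAC-seq 4.45 and 4.71%. These were the highest shares among the survival genes in both replicates. A separate site 17.2 to 17.7 kb downstream of the 5′ end had H3K4me3, both acetylations and ATAC-seq in both replicates. It lay inside the span of the long noncoding RNA Gm52627.

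Bcl2l1, which codes for Bcl-xL (chr2:152758732-152833803, minus strand), had a narrow mark. Its H3K4me3 interval measured 1.62 and 1.68 kb, below the median of 1.90 and 1.88 kb for intervals that hold a start, and 67.5 and 62.9% of those intervals were wider. It held the starts at 2075 and 3086 bases and ended before the start at 5314 bases, which was inside H3K36me2 in both replicates. H3K27ac appeared again deep inside the gene, from 43.4 to 45.0 kb in replicate 1 and from 43.2 to 45.1 kb in replicate 2, over 1.56 and 1.86 kb, with H3K9ac but no H3K4me3 or ATAC-seq interval. The marked site at -14.4 to -13.9 kb touches the lower-coordinate end of the neighbouring gene Tpx2. The strand of Tpx2 was not used, so that end may be its start.

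Of the effectors, Bax (chr7:45461695-45466903, minus strand) had H3K4me3 of 1.92 and 1.79 kb, H3K9ac of 1.48 and 1.28 kb and H3K27ac of 1.65 and 1.79 kb at its start, and no ATAC-seq interval there in either replicate. It was the only one of the 9 genes with a listed start that lacked ATAC-seq at all of its starts. Its window held 2 accessible sites, at 5.61 to 6.09 kb and 6.67 to 7.61 kb, and both lie beyond its 3′ end, within 1 kb of the start of Ftl1, the ferritin light chain gene. The wider H3K4me3 interval of the window, 4.13 and 4.03 kb, also belongs to that start. Bak1 (chr17:27019812-27028627, minus strand) was marked at its start over 2.15 and 2.07 kb of H3K4me3, with accessible sites at the start and 0.885 to 1.17 kb inside in replicate 1, and at 0.794 to 1.23 kb in replicate 2. Ggnbp1 spans Bak1, so marks inside Bak1 cannot be assigned to one gene.

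Among the BH3-only genes, Bbc3 (chr7:16308398-16318334, plus strand), which codes for the p53 target Puma, had a start interval as reproducible as it was wide. H3K4me3 measured 5.66 kb in both replicates, and 0.955 and 0.891% of start intervals were wider. Its window had the highest share of H3K4me3 of the 10 genes (16.8 and 16.5%), of H3K9ac (17.3 and 18.5%) and of ATAC-seq (8.77 and 9.57%). Upstream, 3 sites between -13.6 and -8.49 kb were accessible in both replicates and carried H3K4me3, H3K9ac and H3K27ac in both. None of these lay within 1 kb of a listed start or of the end of another gene.

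Bcl2l11 (chr2:128126038-128162547, plus strand), the gene for Bim, had H3K4me3 of 2.96 and 2.95 kb over its 2 listed starts, each with its own accessible site. A site 26.8 to 27.7 kb inside the gene was accessible over 0.942 and 0.989 kb, the largest single ATAC-seq intervals of that window, and had H3K4me3 and both acetylations in both replicates. Bid (chr6:120893119-120917062, minus strand), which is cleaved by caspase 8 to link death receptors to mitochondria, had H3K4me3 of 2.22 kb in both replicates. Bmf (chr2:118528757-118549686, minus strand), a BH3-only gene linked to the cytoskeleton, had H3K4me3 of 1.76 and 1.67 kb at its first start and of 0.624 and 0.60 kb at the start 5099 bases inside. The start of Bmf at 2087 bases had no interval of the active marks.

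Pmaip1 (chr18:66458604-66465558), the gene for Noxa, stood apart from the other 9 genes. Its span held no H3K4me3, H3K9ac or ATAC-seq interval in either replicate, and its only acetylation was a single H3K27ac interval of 0.20 kb in replicate 2. H3K36me2 covered 57.5 and 89.1% of the span. The flanks were densely marked: H3K4me3 lay at -11.4 to -10.2 kb and at 11.7 to 13.5 kb from the lower-coordinate end, and 1 H3K27ac interval ran for 5.71 and 5.68 kb from 10.9 to 16.6 kb. H3K27ac covered 29.5 and 28.6% of the window, the highest share of the 10 genes. No other gene of the annotation lies in that window. Having H3K4me3 within 20 kb but none in the gene or 3 kb of it, a criterion chosen after its values were seen, was met by 13.7% of all genes and 10.2% of protein-coding genes. The promoter table gives no start or strand for Pmaip1, so both ends of its span were used.

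**Figure D2:**
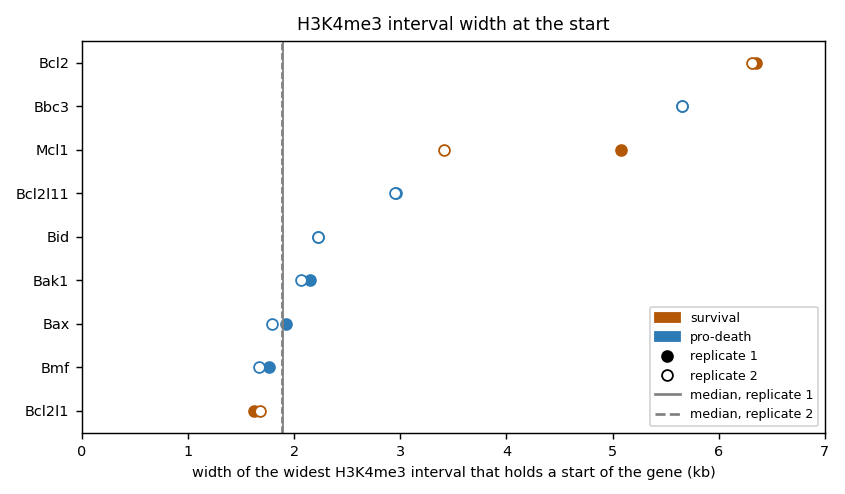
Width in kb of the widest H3K4me3 interval that holds a listed start, for the 9 genes with one, in replicate 1 (filled) and replicate 2 (open), with the medians over all start intervals (1.90 and 1.88 kb, grey lines). Bcl2 and Bbc3 lie above 5 kb in both replicates, and Mcl1 falls from 5.08 to 3.41 kb where its interval is split. Bmf and Bcl2l1 lie below the medians in both replicates, and Bax (1.79 kb) does so in replicate 2 only.

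The contrast of survival with pro-death genes depended on the window. In the windows of span plus 20 kb, the median share covered by H3K4me3 was 4.55% over the 3 survival genes (2.86 to 14.9%) and 7.46% over the 7 pro-death genes (6.26 to 16.9%), merged over replicates, against 2.20% over protein-coding genes. Survival minus pro-death was -2.80 ± 0.122 percentage points (SD, n = 2 replicates) for H3K4me3, -3.63 ± 0.262 for H3K9ac, -5.35 ± 0.0292 for H3K27ac, -1.44 ± 0.639 in ATAC-seq and 24.0 ± 1.99 for H3K36me2. Over the gene span alone the merged H3K36me2 medians were 84.3 and 83.1%, a difference of 1.16 points. The windows themselves were longer for the survival genes, with a median of 115 kb against 49.9 kb, and Bcl2 alone took 216 kb.

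In shorter windows, 5 kb on each side of every listed start (of both gene ends for Pmaip1), the order turned around for the active marks. These windows measured 10001 bp for genes with 1 start and up to 16955 bp for Pmaip1. The difference was then 33.1 ± 0.834 points for H3K4me3, 24.6 ± 1.92 for H3K9ac, 22.2 ± 2.35 for H3K27ac and 5.64 ± 1.35 in ATAC-seq. With 1 start per gene, so that all windows had one size, and without Pmaip1, the merged differences were 29.8, 23.2, 21.8 and 4.02 points. H3K36me2 had no stable order there, with 14.7 and 18.3 points in replicates 1 and 2 but -10.3 points when the replicates were merged, and 9.04 points merged without Pmaip1. Bcl2 had 61.5 and 61.1% of its start window under H3K4me3 and Mcl1 had 55.2 and 54.4%. Bcl2l1, with 12.2 and 12.7%, lay below all pro-death genes except Pmaip1, which had 1.49 and 1.78%, and Bbc3 reached 52.2 and 52.1%. The ranges of the survival and pro-death genes overlapped for every mark in both kinds of window, so the medians separate no group. The values are a description, since 10 genes of one cell line are not replicates, and no test was run over them.

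The order of the genes by H3K27ac around the start was led by Bbc3, with 56.4 and 57.9% of the start window covered. Mcl1 (45.5 and 49.1%) and Bcl2 (45.8 and 42.2%) followed, and their replicates overlapped, so these 2 survival genes were not separated from each other. Bmf had 27.4 and 31.6%. Bcl2l11, Bak1 and Bid lay between 20.5 and 22.5% in every replicate and could not be ordered, with Bax just below at 17.9 and 19.05%. Pmaip1 (10.9 and 11.3%) and Bcl2l1 (9.38 and 9.69%) had the lowest shares. The windows behind these shares differ in length. They measured 10001 bp for Bcl2, Mcl1 and Bax, 13240 bp for Bcl2l1, 15100 bp for Bmf and 16955 bp for Pmaip1. An order by covered base pairs was not computed and could differ, as between Bax and Pmaip1 or between Bmf and Bcl2. By ATAC-seq, Bbc3 again came first with 23.9 and 28.7%, ahead of Bcl2 with 12.9 and 16.3%. Mcl1 (12.3 and 9.92%), Bcl2l11 (11.1 and 10.4%) and Bcl2l1 (5.67 and 11.8%) overlapped between replicates. Bax and Pmaip1 had no accessible base pair in these windows in either replicate.

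**Figure D3:**
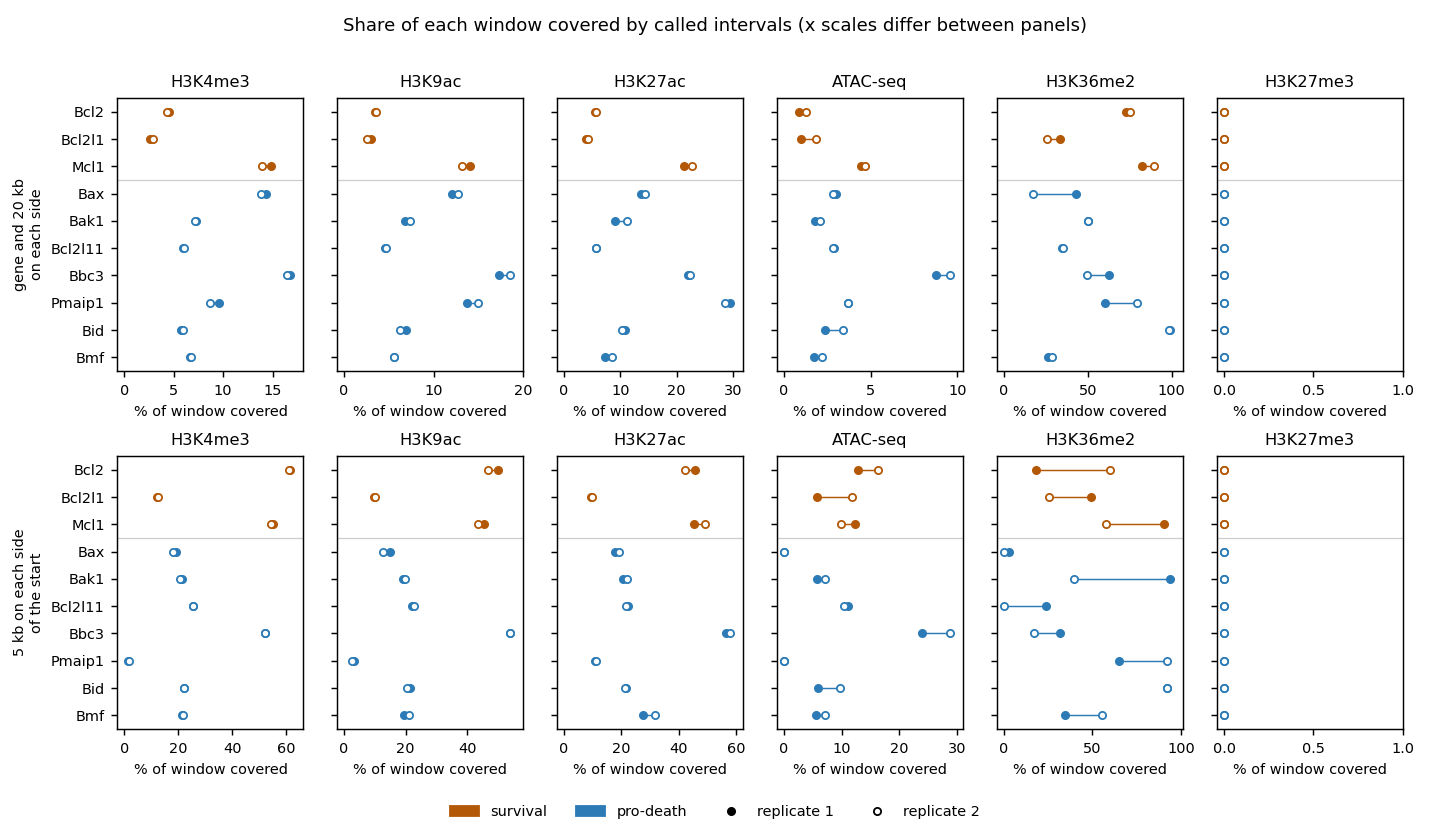
Percent of each window covered by called intervals for the 10 genes (survival in brown, pro-death in blue; filled, replicate 1; open, replicate 2), in windows of the gene plus 20 kb (top) and of 5 kb on each side of its starts (bottom, with Pmaip1 around both gene ends). Bcl2 moves from among the lowest H3K4me3 shares at the top (4.55 and 4.28%) to the highest at the bottom (61.5 and 61.1%).

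H3K36me2 covered more of the windows than any other mark. Bid was covered over 98.7 and 98.6% of its window and Mcl1 over 82.3 and 89.2%, while Bmf had 26.6 and 28.6% and Bcl2l1 33.5 and 25.9%. The medians over protein-coding genes were 13.5 and 13.1%. In the Bid window the cover was broken at the 5′ end, by a gap of 0.801 kb in each replicate that lay inside the H3K4me3 interval. The listed start of Bid, 238 bases inside the span, fell in the gap in replicate 1 and just inside the next interval in replicate 2, a shift of 1 bin of 200 bp. Gaps under 1 kb surrounded 0.274 and 0.289% of all listed starts outside H3K36me2.

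At Bcl2, H3K36me2 stopped 1.11 and 0.311 kb upstream of the start and resumed 6.29 and 3.69 kb downstream. The H3K4me3 interval filled most of that gap in replicate 1 and all of it in replicate 2. Agreement between replicates was weak at some genes: Bmf had 26.6 and 28.6% covered, but with a Jaccard index of 0.191, and Bax had 42.9 and 17.5%, with an index of 0.235. Where H3K36me2 lies at these genes therefore differed between the 2 libraries.

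**Figure D4:**
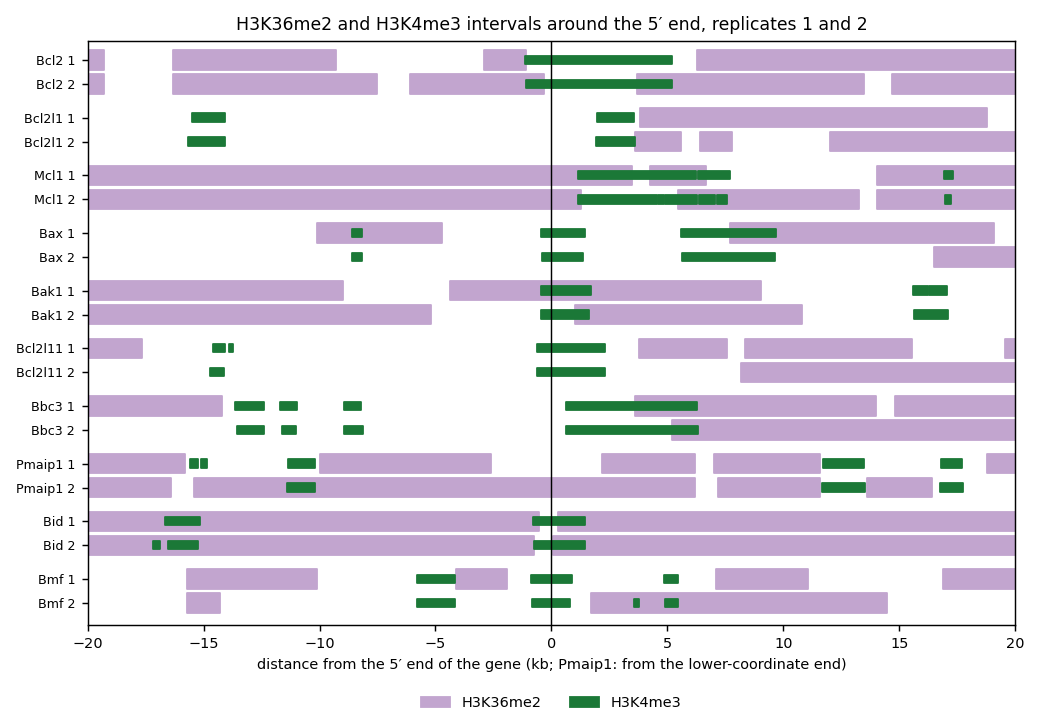
H3K36me2 (light bars) and H3K4me3 (green bars) within 20 kb of the 5′ end of each gene (for Pmaip1, of the lower-coordinate end), with a row per gene and replicate. The narrow gap of 0.801 kb at Bid lies under its H3K4me3 interval in both replicates, and the H3K36me2 intervals of Bax and Bmf differ between replicates.

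The nearest H3K27me3 interval in either replicate lay 57.4 kb (Pmaip1) to 318 kb (Mcl1) from the gene span. The medians over the 10 genes were 140.1 kb in replicate 1 and 137 kb in replicate 2, against 69.9 and 77.6 kb over all genes and 53.1 and 59.3 kb over protein-coding genes. For Bax the distance was 61.1 kb in replicate 1 and 130.3 kb in replicate 2, and for Bid 139.5 and 62.9 kb, so the order of the genes by distance was not the same in both replicates. Extending the windows to 50 kb still met no H3K27me3.

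ATAC-seq intervals of both replicates merged into 42 accessible sites in the 10 windows, 15 at survival genes and 27 at pro-death genes, or 3.97 and 6.88 sites per 100 kb of window. Per gene the count was highest at Bcl2 with 7, in the longest window, and the density was highest at Bbc3 with 12.0 sites per 100 kb. The densities of the groups overlapped. They were 3.24 at Bcl2, 3.48 at Bcl2l1 and 8.65 at Mcl1, against 3.92 (Bcl2l11) to 12.0 (Bbc3) at pro-death genes. Of the 42, 13 lay within 1 kb of a listed start of the gene itself, 2 of a start of Ftl1, and 27 of no listed start. Of these last, some lie within 1 kb of an end of a neighbouring gene with no listed start nearby, as at Tpx2, and such an end may be a start. H3K27ac touched 88.1% of the 42 sites, H3K9ac 85.7%, H3K4me3 81.0%, H3K36me2 50% and H3K27me3 none. Over all 20771 merged ATAC-seq intervals the shares were 82.1, 75.2, 76.9, 38.5 and 1.38%.

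The sites differed by whether both replicates called them. Both called 30 of the 42, and 29 of those 30 touched each of H3K4me3, H3K9ac and H3K27ac, against 85.6, 84.4 and 89.9% of all accessible sites called in both. H3K36me2 touched 14 of the 30, against 38.1%, and H3K27me3 touched 0, against 0.987%. The exception, singled out after its values were seen, lay 66.6 to 66.9 kb inside Bcl2, where H3K36me2 was present in both replicates and no active mark in either. Marked sites away from listed starts were found in the windows of both groups of genes. Some lay inside Bcl2 at 25.7 to 26.2 kb and inside Bcl2l11 at 26.8 to 27.7 kb. Others lay at Bak1 at 16.2 to 16.6 kb, at Pmaip1 at -10.9 to -10.4 kb and 12.0 to 13.2 kb, and at Bmf at -5.27 to -4.68 kb. Another, at Bid at -16.1 to -15.6 kb, lay inside the span of the neighbouring gene Mical3. These sites are examples and not a full list. No start on chromosome 18 is listed, so the 4 sites of the Pmaip1 window count as away from listed starts by construction.

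The other members of the family were marked less evenly. H3K4me3 touched a gene end in both replicates at Bcl2l2, which codes for the survival protein Bcl-w, at Bcl2a1b and Bcl2a1d, 2 of the closely related A1 genes, and at Bad, a BH3-only gene regulated by phosphorylation. These made up 3 of 5 other survival genes and 1 of 4 other pro-death genes (28.2% of all genes and 47.3% of protein-coding genes), and of them Bcl2l2 and Bad also had H3K9ac, H3K27ac and ATAC-seq in both replicates. Bcl2l10, Bcl2a1a, Bok and Hrk had no H3K4me3, H3K9ac, H3K27ac or ATAC-seq interval at a gene end in either replicate. Hrk, a BH3-only gene best known in neurons, had H3K27me3 at a gene end in both replicates, and Bik had it in 1. The A1 genes are near copies of each other, and reads that align to several places were discarded by the study, so their values are uncertain. Of 13 genes upstream and downstream of the mitochondrial step, 11 had H3K4me3, H3K9ac, H3K27ac and ATAC-seq at a gene end in both replicates, among them Apaf1, Casp9 and Trp53, against 23.4% of all genes and 41.4% of protein-coding genes. Cycs, which codes for cytochrome c, and Xiap, a caspase inhibitor on chromosome X, had none of these marks, and H3K27me3 was at 0 of the 13 (14.3% of all genes). The methods of the study say that reads on chromosome X were discarded, although 30.5% of its protein-coding genes had H3K4me3 at a gene end in both replicates, and the part of this in the empty lists at Xiap was not tested.

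By the profile of the 12 lists within 5 kb of the start, the protein-coding gene nearest to Bcl2 was Pcgf2, with a mean absolute difference of 4.31 percentage points, against a median of 32.9 over all genes compared. For Mcl1 it was Cnn2 (3.66), for Bcl2l1 Cdc14a (1.11), for Bax Ampd3 (0.73), for Bak1 Eif3c (0.897) and for Bid Toe1 (0.606). For Bcl2l11 it was Tmem123 (0.884), for Bbc3 Gm52799 (2.43), for Pmaip1 Ifit1bl1 (1.63) and for Bmf Cyfip2 (1.89). Within the family, Bcl2 and Mcl1 were nearest to each other at 9.15 points, and the nearest member to Bbc3 was Bcl2 at 11.3 points. For every member, at least 132 protein-coding genes lay nearer than its nearest relative in the family.

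The start regions of the family, as printed above for 6 of the 16, were rich in CpG. The ratio of observed to expected CpG had a median of 0.748 over the 16 regions, against 0.387 over all 32619 listed starts and 0.801 over the 10408 starts inside H3K4me3 in both replicates. The GC box (GGGCGG on either strand) was present in 10 of 16, or 62.5%, against 35.9% of all regions and 67.1% of those with H3K4me3, so the share at the family resembled that of marked starts in general. The Bcl2 region held 7 matches, the Bbc3 start at 2033 bases 7, and each Bcl2l11 start 3. CCAAT was present in 5 of 16 (37.6% of all regions, 37.7% of those with H3K4me3). GGAAGT, the core of ETS sites, was present in 5, or 31.25% (23.9% of all regions, 30.4% of those with H3K4me3). TATAAA, TGACGTCA and TGACTCA were present in 0 (13.7, 1.80 and 5.22% of all regions). Among regions with H3K4me3 their shares were 5.79, 3.45 and 3.10%. The Bmf start at 2087 bases, which had none of the active marks, held 6 CpG. The starts of that gene with H3K4me3 and acetylation held 13 and 8. Motif matches describe these letters only and no binding was measured.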

How the data were processed

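ChIP-seq and ATAC-seq of EL4 cells gave 12 lists, 2 replicates for each of 5 histone marks and ATAC-seq. Of 15 samples, 3 were not used here, an input and a pair of RNA-seq libraries. The deposited files list the chromosome, start and end of each interval, with no score, signal or count, so depth per sample is unknown and no counting interval or floor was computed. According to the methods and the submitters' processing notes, the authors aligned reads to GRCm38 with STAR 2.5, kept unique alignments, treated duplicates with Picard, and called narrow marks and ATAC-seq with MACS2 and H3K36me2 and H3K27me3 with Epic. Broad intervals therefore lie on bins of 200 bp, and their edges are no finer. The methods say that reads on the sex chromosomes were discarded, but the lists hold intervals on chromosome X.

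The members and gene lists were chosen with earlier results of these data known. Gene spans came from the RefSeq table of GRCm38.p6, and start sites and sequences from the RefSeq promoter table, which matched 9 of 10 members. Intervals of replicates 1 and 2 that overlap or adjoin were merged, as the study merged its peaks, and each replicate was also read alone. An overlap of 1 bp counted. All 10 members were to be named in every result that covers them, but several passages give values for only some of them. Of the other pathway genes, those with H3K27me3 in both replicates at a gene end or with no active mark there were to be named; those given as examples of marked genes were named after their values were seen. For likeness, the protein-coding gene over 100 kb away with the smallest mean absolute difference over the 12 lists was named. No test was run: there is 1 cell line and no contrast of conditions, and 2 libraries against 2 cannot reach the usual threshold in an exact permutation test. Alternatives were the intersection of replicates, each replicate left out, other windows, and other minimum overlaps and widths. Counting was tested on simulated intervals and against bedtools 2.31.1, which differed in 0 of 120 windows. Python 3.11.15, numpy 2.4.6 and matplotlib 3.10.9 were used.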

Additional observations from a re-analysis of the deposited data

How the results depend on the processing

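The counts of genes with an interval, 42 values for windows and 36 for gene ends, stayed within 1.5 times the count over merged replicates under every alternative run. The 6 shares of protein-coding genes stayed within 1.5 times those of all genes. With the intersection of replicates, the count at gene ends fell from 9 to 6 for H3K36me2, at that limit, and from 10 to 8 for H3K27ac. The difference of survival minus pro-death medians did not stay within such limits. Merged over replicates it was -2.90 points for H3K4me3, -4.07 for H3K9ac, -5.10 for H3K27ac, -1.30 for ATAC-seq and 23.1 for H3K36me2. With 5 kb on each side of the starts it reversed for all 5 in the merged lists, to 33.3, 25.7, 23.9, 4.73 and -10.3 points, but for H3K36me2 each replicate alone kept its sign (14.7 and 18.3 points). In alternatives chosen after seeing the data, it was 33.1, 25.6, 23.5, 3.70 and 9.04 points without Pmaip1 in those windows, and 29.8, 23.2, 21.8, 4.02 and 19.5 points without Pmaip1 and around the first start of each gene only. With the gene span alone it was -5.47, -5.64, -10.1, -2.69 and 1.16 points, and with 50 kb on each side -0.579, -2.00, -3.68, -0.515 and 15.4 points, in the same order. The cause was not tested, although the windows differ in length by construction. With the intersection of both replicates it was -2.70 for H3K4me3, -3.08 for H3K9ac and -5.07 for H3K27ac. Leaving out one replicate gave -2.89 to -2.72, -3.82 to -3.45, -5.37 to -5.33, -1.89 to -0.989 and 22.6 to 25.4 points. H3K27me3 covered none of the windows under any of these.

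No paired analysis was possible because the results come from no test. The lists carry no score that separates weak from strong intervals, and the absence of an interval, as at the start of Bax for ATAC-seq or in the span of Pmaip1, says only that none was called at an unknown depth. Whether reads align uniquely at these places was not tested. Within the windows of these genes, H3K36me2 had the lowest median agreement between replicates, with a Jaccard index of 0.610. A window can hold marks of neighbouring genes, as at Ftl1 beside Bax.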
